A study of Mus musculus with 16 samples.

Results

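Anti-PD1 treatment was followed in sorted splenic CD8 T cells by comparing an aPD1 library with an Isotype Control library in Aire+/+ mice and, separately, in Aire-/- mice. A barcode counted as a CD8 T cell when it held at least 1 UMI (unique molecular identifier, a counted RNA molecule) of Cd8a or Cd8b1, at least 1 of Cd3e, Cd3d or Cd3g, at most 1 of Cd79a and 0 of Siglech. This gate kept 10516 of the 10856 barcodes in the 4 CD8+ spleen libraries, out of 37609 barcodes in all 16 libraries of the series. The study measured single-cell RNA in the spleens and tumors of mice that all carried MC38 colon tumors, to ask how loss of Aire, a thymic regulator of self-antigen display, combines with PD-1 blockade. Mice were of the C57BL/6 background, either Aire+/+ or Aire-/-, and the paper's methods describe littermates purchased at 8 weeks of age. They received aPD1 or Isotype Control antibody. Each dose was 5 mg/kg, the first on day 0 of the tumor implant and the others on day 3, day 7, day 10 and day 14, and spleens were taken on day 19. Spleens of a condition were pooled and each condition gave 1 library, so the spread between animals cannot be seen. With 1 library per group there is no test of any difference, and the intervals below, all at the 95% level, cover counting error only.

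PD-1, encoded by Pdcd1, is an inhibitory receptor that T cells display after antigen encounter, and antibodies that block it release signaling through the T cell receptor and CD28. Most splenic CD8 cells are naive, recirculating cells that display little PD-1, and a smaller part are memory and effector cells with cytotoxic granules and chemokines. The tumor and its draining lymph nodes are where blockade is best known to act, and the spleen shows its systemic side.

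Values are given throughout in the order Aire+/+ Isotype Control, Aire+/+ aPD1, Aire-/- Isotype Control and Aire-/- aPD1. The gate kept 2799, 2871, 2295 and 2551 barcodes, which were 96.5%, 96.8%, 97.5% and 96.9% of each library. The kept cells held 19033369, 18431319, 15213401 and 15678291 UMIs. The median cell had 6381, 6294, 6276 and 5781 UMIs, so that depth was alike within the Aire+/+ pair and a little lower in the Aire-/- aPD1 library than in its control. Any 2 of the 4 libraries shared 8 to 13 barcodes, and each shared 2 to 18 with a library of the other 12. All levels below are in CPM, the UMIs of a gene per 1000000 UMIs of the kept cells.

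The gate itself requires RNA of the CD8 coreceptor and the CD3 chains, so their presence is no check of the cells, and their levels are given as a description. Cd8b1, the beta chain of the coreceptor, stood at 1708, 1526, 1650 and 1793 CPM, and Cd3e, a chain of the T cell receptor complex, at 1020, 960, 963 and 1057. Cd4, the coreceptor of helper T cells, which the gate did not use, had a UMI in 1, 5, 2 and 5 of the kept cells. Klf2, a transcription factor of quiescent recirculating T cells, stood at 1000, 978, 1046 and 1200, alike in all 4 libraries within 1.5-fold. Aire had 0 UMIs in all 4 libraries, which allows up to 0.158, 0.163, 0.197 and 0.191 CPM, so it gives no check of the genotype labels in splenic T cells. The 2 genotypes did differ at closely related gene copies, such as Rnaset2b at 179, 175, 61.4 and 74.0 and Dynlt1b at 32.2, 31.7, 94.9 and 88.6, where reads can be split between copies. Both libraries of a genotype stood together at these genes. Xist, the RNA of the inactive X chromosome, stood at 233, 257, 272 and 215, and the Y-linked Ddx3y had 1, 0, 0 and 0 UMIs.

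Few genes differed by much between treatments, and very few did so in the same direction in both genotypes. Of 8937 genes with at least 100 UMIs over the libraries of each pair, 62 (0.694%) were at least 1.5-fold higher under aPD1 in Aire+/+ and 25 (0.280%) at least 1.5-fold lower. In Aire-/-, 57 (0.638%) were higher and 73 (0.817%) lower by that size. Past 1.5-fold in both genotypes, 2 genes (0.0224%) were higher, Ccl3 and Fcer1g, and 2 (0.0224%) were lower, Acvrl1 and Daam1. These 4 were picked by their size in these same libraries, so their ratios describe them and support nothing further.

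Ccl3, an inflammatory chemokine that activated T cells and NK cells secrete, had the largest shared ratio. Its level was 2.52, 13.3, 2.30 and 4.98 CPM, with intervals of 1.86 to 3.34, 11.7 to 15.1, 1.60 to 3.20 and 3.93 to 6.21. The log2 ratio of aPD1 over Isotype Control was 2.40 (1.95 to 2.88) in Aire+/+ and 1.11 (0.52 to 1.73) in Aire-/-. Both aPD1 libraries stood above both controls. Few cells had a Ccl3 UMI, 16, 21, 24 and 27 cells (0.572%, 0.731%, 1.05% and 1.06%), against 0.172% of splenic B cells from the CD45+ libraries, the background. After thinning each cell to 1500 UMIs the shares were 0.179%, 0.383%, 0.261% and 0.392%, against 0.0689% of B cells, with wide intervals such as 0.0580% to 0.416% in the Aire+/+ Isotype Control library and 0.0188% to 0.176% in B cells. In the Aire+/+ aPD1 library 1 cell held 183 of its 245 UMIs. Leaving out the 5 cells with most Ccl3 in each library, an alternative chosen after the data were seen, took the log2 ratios to 0.59 and 0.29. Ccl4, the neighboring chemokine with which Ccl3 is often made, was looked up after its values were seen and stood at 21.5, 47.7, 25.7 and 31.9. Its log2 ratios were 1.15 (0.98 to 1.32) and 0.31 (0.12 to 0.51), and without the 5 top cells they were -0.21 and 0.27, so the direction of Ccl4 in Aire+/+ turned with those few cells. Nearly all cells with a Ccl3 UMI also had a Ccl5 UMI: 13 of 16, 20 of 21, 23 of 24 and 25 of 27. Among the few others the Aire+/+ log2 ratio was -3.58. Without the 5% of barcodes with most UMIs the Ccl3 ratios were 1.21 and 0.22, the latter not past 1.5-fold.

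Fcer1g, a signaling chain that pairs with activating receptors on NK cells, myeloid cells and some innate-like T cells, was the other gene higher in both genotypes. Its level was 5.04, 7.60, 4.80 and 8.67 CPM, with intervals of 4.09 to 6.16, 6.39 to 8.96, 3.76 to 6.03 and 7.28 to 10.3. The log2 ratio was 0.59 (0.21 to 0.98) in Aire+/+, just past the 1.5-fold line, and 0.85 (0.43 to 1.28) in Aire-/-. Its partner adaptor Tyrobp lay just inside that line, at 5.15, 7.70, 4.21 and 6.06 with log2 ratios of 0.58 (0.20 to 0.97) and 0.53 (0.05 to 1.01). Both genes were thus higher in each aPD1 library than in its own control. The RNA sat in few cells, with an Fcer1g UMI in 32, 29, 17 and 40 cells, of which 22, 25, 16 and 24 also had a Ccl5 UMI. Without its 5 top cells per library the log2 ratio of Fcer1g was 0.40 and 1.22, while that of Tyrobp was 0.25 and -0.14. Among cells without a Ccl5 UMI the Aire+/+ log2 ratio of Fcer1g turned to -0.91, and under a stricter gate, which left out cells with any UMI of Cd79a, Cd4, Cd74, Lyz2 or Hbb-bs, its ratios were 0.22 and 0.40. It was then no longer past 1.5-fold in both pairs, nor was it when barcodes shared between libraries were left out, with 0.55 and 0.80. After thinning each cell to 1500 UMIs, 0.357%, 0.488%, 0.261% and 0.862% of cells had an Fcer1g UMI (1.14%, 1.01%, 0.741% and 1.57% unthinned). Those B cells, with a median of 4276 UMIs, had it at 0.620% thinned and 1.22% unthinned. Of the CD8+ libraries, 3 were below that background. The thinned intervals of both Aire+/+ shares, 0.171% to 0.656% and 0.267% to 0.817%, and of the Aire-/- aPD1 share, 0.541% to 1.30%, include 0.620%. That of Aire-/- Isotype Control, 0.0960% to 0.568%, lay below it but overlaps the B cell interval of 0.435% to 0.858%.

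Acvrl1, a receptor of the TGF-beta family best known from blood vessel walls, was lower under aPD1 in both genotypes. Its level was 6.83, 4.23, 5.19 and 3.0 CPM, with intervals of 5.71 to 8.11, 3.35 to 5.28, 4.11 to 6.47 and 2.2 to 3.99. The log2 ratio was -0.69 (-1.11 to -0.27) in Aire+/+ and -0.79 (-1.35 to -0.25) in Aire-/-. Each aPD1 library was below its own control and also below the control of the other genotype. Unlike Ccl3, its UMIs were spread thinly over 118, 76, 72 and 44 cells, mostly 1 per cell, and without the 5 top cells the ratios were -0.71 and -0.85. Of these cells only 9, 3, 5 and 4 had a Ccl5 UMI. In thinned cells the share with an Acvrl1 UMI was 1.07%, 0.627%, 0.741% and 0.510% (4.22%, 2.65%, 3.14% and 1.72% unthinned), against 0.0689% and 0.172% in B cells.

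Daam1, a formin-family regulator of the actin skeleton, was the other shared lower gene. It stood at 4.83, 2.82, 4.86 and 2.93 CPM, with intervals of 3.90 to 5.93, 2.11 to 3.70, 3.82 to 6.11 and 2.15 to 3.91. The log2 ratio was -0.78 (-1.30 to -0.27) in Aire+/+ and -0.73 (-1.29 to -0.18) in Aire-/-. The controls of both genotypes were alike and both aPD1 libraries were lower. The UMIs lay in 84, 51, 67 and 41 cells, and without the 5 top cells the ratios were -0.77 and -0.87. Of these cells, 35, 6, 21 and 9 had a Ccl5 UMI. In the Aire+/+ pair the log2 ratio was -2.55 among cells with a Ccl5 UMI and -0.18 among cells without. In a random draw of 1500 UMIs per cell the Aire-/- log2 ratio turned to 0.23. In that draw 14, 11, 13 and 17 cells had a Daam1 UMI (0.50%, 0.383%, 0.566% and 0.666%, against 0.259% in B cells). In a draw of 1000 UMIs it was 13, 6, 13 and 4 cells, so these small counts differ from draw to draw and no order is read from them.

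**Figure D1:**
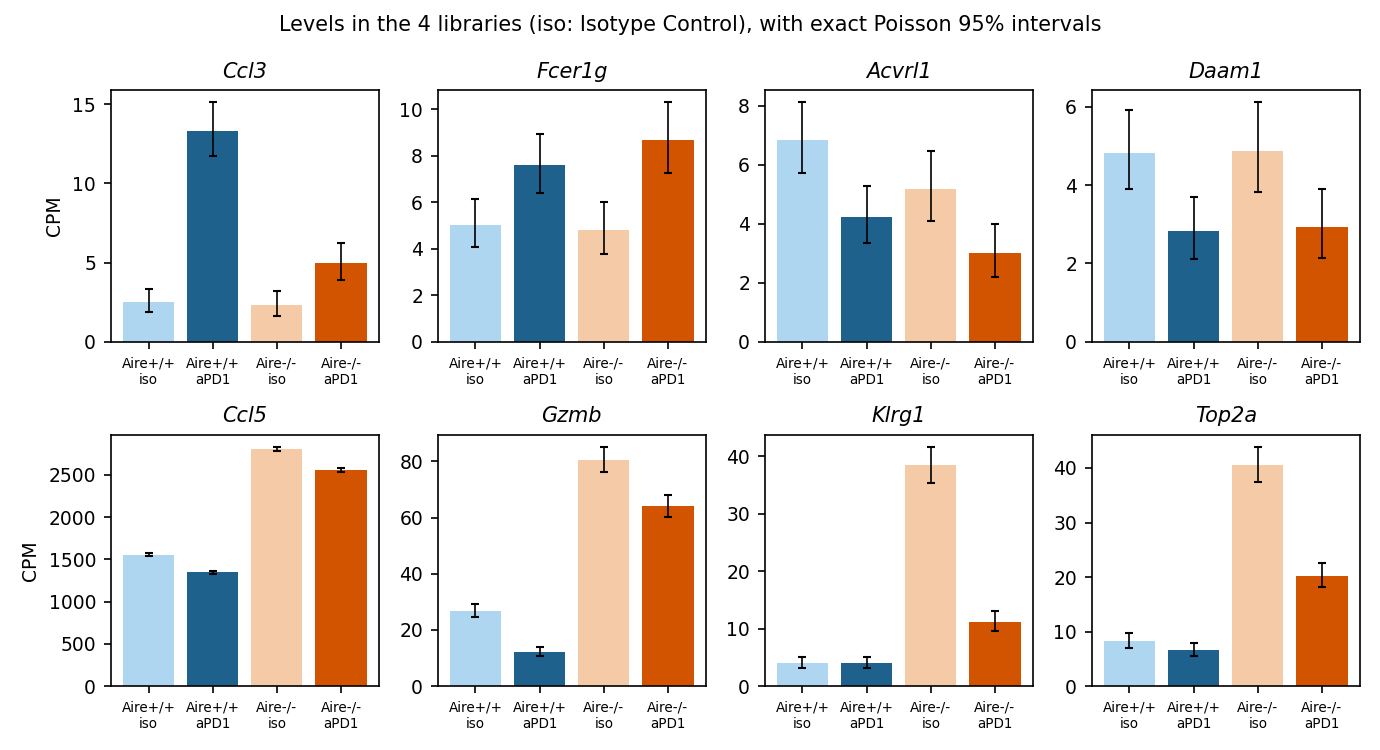
CPM of 8 genes (vertical axes, each starting at 0) in the 4 libraries, with exact Poisson 95% intervals as error bars. Ccl3 and Fcer1g were higher and Acvrl1 and Daam1 lower in the aPD1 library of each genotype, whereas Klrg1 and Top2a differed mainly within Aire-/-, where Klrg1 stood at 38.5 in the control and 11.2 under aPD1.

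**Figure D2:**
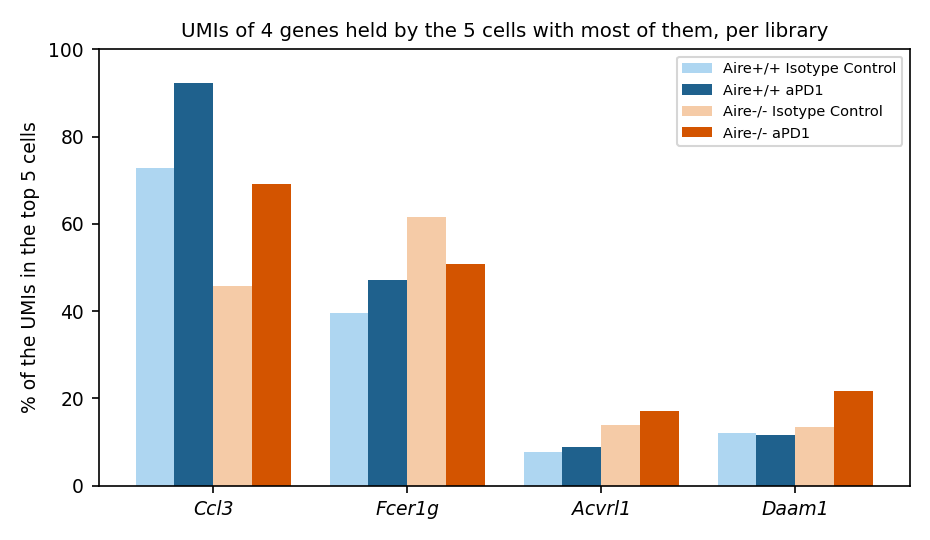
Percent of a gene's UMIs (vertical axis) held by the 5 cells with most of them, for the 4 genes past 1.5-fold in both genotypes and each library (colors). In the Aire+/+ aPD1 library 5 cells held 92.2% of the Ccl3 UMIs, against 8.97% for Acvrl1.

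Across all tested genes log2 ratios of the 2 genotypes had opposite signs more often than the same sign. Log2 ratios were above 0 in both pairs for 1818 genes (20.3%), below 0 in both for 1356 (15.2%) and of opposite sign for 5763 (64.5%). The Pearson correlation of the Aire+/+ with the Aire-/- log2 ratios was -0.33 across the 8937 genes, and Spearman's rho was -0.33. Among the 6200 genes with at least 400 UMIs in each pair, r was -0.46. The pairs share no library, but genes of a library share its depth and cells and are not independent replicates, so no p-value is given. The share of opposite sign was 62.3% to 62.9% under the other 3 scalings.

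Genes of the mitochondrial genome followed this pattern. Their summed level was 35003, 47015, 43589 and 35325 CPM, which is 3.50%, 4.70%, 4.36% and 3.53% of all UMIs. The Aire+/+ aPD1 and Aire-/- Isotype Control libraries were the high ones. Of 21 tested mitochondrial genes, 2 were higher in both pairs, 0 lower in both and 19 of opposite sign, with a median log2 ratio of 0.48 in Aire+/+ and -0.24 in Aire-/- against -0.02 and 0.04 over all tested genes. mt-Rnr2, the large mitochondrial ribosomal RNA, stood at 6873, 9988, 9814 and 7584. Nuclear genes of oxidative phosphorylation ran the other way, with medians of -0.12 and 0.10 and 66 of 75 members of opposite sign. Genes of glycolysis did likewise, with medians of -0.15 and 0.17 and 12 of 14 of opposite sign. Gapdh, a glycolytic enzyme, had log2 ratios of -0.24 (-0.28 to -0.21) and 0.26 (0.23 to 0.30). The signs of these 3 lists' medians were the same under all 3 other scalings. The same gate in the CD45+ sort of spleen did not show the opposition, with medians of 0.12 and 0.04 for the mitochondrial genes, -0.06 and -0.04 for oxidative phosphorylation and -0.17 and -0.16 for glycolysis. The part of the mitochondrial share in the other ratios was not tested.

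Past 1.5-fold, 12 genes (0.134%) differed in opposite directions, 10 of them higher in Aire+/+ and lower in Aire-/-. Among them were 3 mitochondrial tRNA genes, the RNA component Rmrp and the small nucleolar RNA gene Snord22. Cxcr4, a chemokine receptor for homing to bone marrow and lymphoid tissue, had 215, 369, 302 and 195 UMIs and log2 ratios of 0.83 and -0.67, with the same libraries high as for the mitochondrial genes. Xcl1, a chemokine of activated CD8 and NK cells that attracts cross-presenting dendritic cells, ran the other way at 53.0, 34.1, 26.4 and 60.2. Its log2 ratios were -0.64 (-0.78 to -0.49) and 1.19 (1.02 to 1.36), and without the 5 top cells of each library -0.26 and 0.86.

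**Figure D3:**
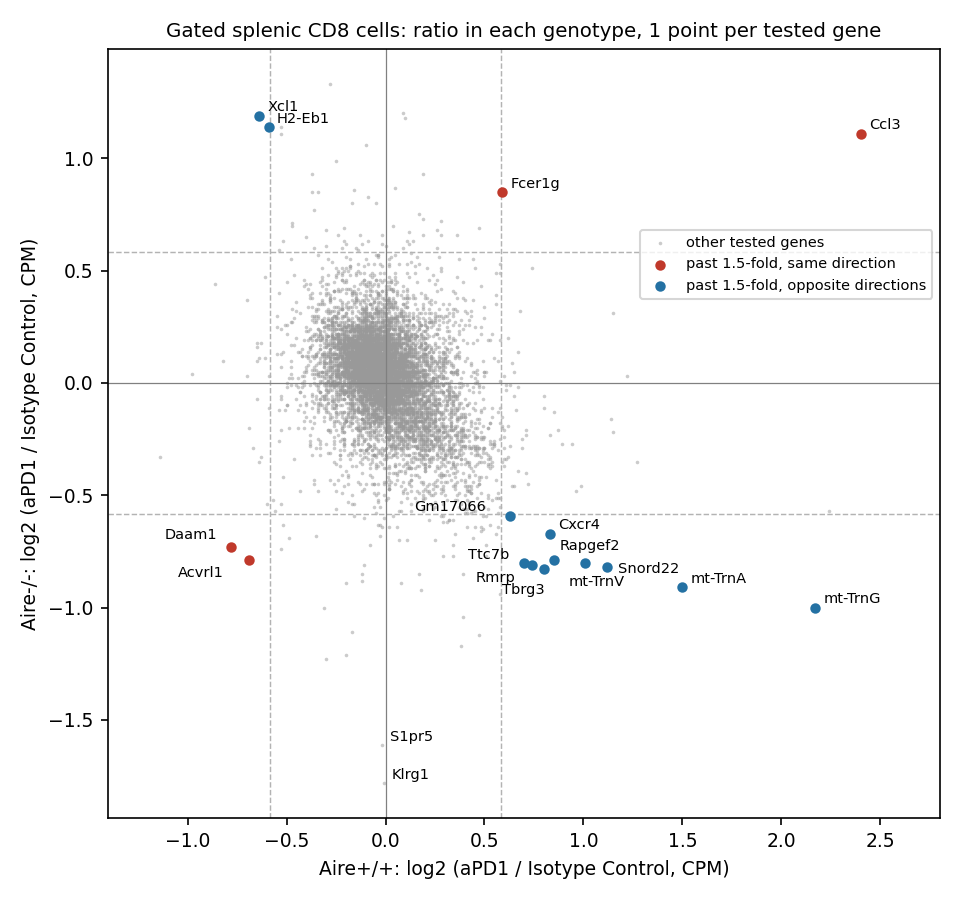
Log2 ratio of aPD1 over Isotype Control in Aire+/+ (horizontal axis) and in Aire-/- (vertical axis) for each of the 8937 tested genes, with dashed lines at 1.5-fold. The cloud leans from upper left to lower right (r of -0.33), with 2 genes past the lines in the upper right, 2 in the lower left and 12 in the opposite corners.

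Gene groups were described by how many tested members had log2 ratios above 0 in both pairs, below 0 in both, or of opposite sign, to be read beside the 20.3%, 15.2% and 64.5% of all tested genes. Of 18 tested genes of naive T cells, 8 were higher in both, 1 lower in both and 9 opposite. The share higher in both was thus above that of all tested genes, and the share lower in both below it. Their medians were 0.01 and 0.07, against -0.02 and 0.04 over all tested genes. The Aire+/+ median turned below 0 among cells with a Ccl5 UMI and with cells weighted equally.

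Of 29 tested genes of memory and effector cells, 0 were higher in both pairs, 10 lower in both and 19 opposite. Their median log2 ratio was -0.15 in Aire+/+ and 0.00 in Aire-/-, the latter between -0.05 and -0.02 under the other 3 scalings, so that no direction is read for it. Ccl5, a chemokine stored by memory CD8 cells and the most abundant member, stood at 1552, 1345, 2805 and 2555, with log2 ratios of -0.21 (-0.23 to -0.18) and -0.13 (-0.15 to -0.12). In the CD8+ sort it was lower under aPD1 in each genotype, and higher in both Aire-/- libraries than in both Aire+/+ libraries. In the same gate of the CD45+ sort it stood at 1412, 2164, 3667 and 2276, with 0.62 (0.52 to 0.71) and -0.69 (-0.76 to -0.62), so the direction in Aire+/+ was the other one there. In thinned cells, 16.2%, 15%, 21.4% and 20.1% had a Ccl5 UMI (21.8%, 20.1%, 27.2% and 26.0% unthinned), against 0.414% and 0.791% in B cells. The intervals of these thinned shares, 14.8% to 17.6% and 13.8% to 16.4% in Aire+/+, 19.8% to 23.2% and 18.6% to 21.7% in Aire-/-, overlap within each pair. Ly6c2, a surface marker of memory cells, stood at 505, 479, 694 and 627, with log2 ratios of -0.08 (-0.12 to -0.04) and -0.15 (-0.19 to -0.11). Its share of cells did not follow in Aire-/-, with 26.9%, 26.3%, 36.0% and 36.7% of thinned cells (40.7%, 40.6%, 50.5% and 52.5% unthinned), against 1.26% and 2.75% in B cells.

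No direction was read for the list as a whole in Aire-/-, and the following 4 members were singled out because of their values there. Klrg1, an inhibitory receptor of short-lived effector cells, stood at 4.05, 4.01, 38.5 and 11.2 CPM. Its log2 ratio was -0.01 (-0.49 to 0.47) in Aire+/+ and -1.78 (-2.03 to -1.53) in Aire-/-. The Aire-/- Isotype Control library was the high one and both Aire+/+ libraries were low and alike. S1pr5, a receptor that guides effector cells out of tissue, followed the same order at 5.04, 4.99, 23.8 and 7.78, with -0.02 (-0.44 to 0.41) and -1.61 (-1.92 to -1.31). Zeb2, a transcription factor of terminal effector cells, stood at 4.68, 4.07, 15.2 and 6.57, with -0.20 (-0.66 to 0.26) and -1.21 (-1.56 to -0.87). Cx3cr1, a chemokine receptor of circulating effector cells, differed in direction, at 5.99, 8.52, 31.2 and 18.3 with 0.51 (0.15 to 0.87) and -0.77 (-0.98 to -0.55). A Klrg1 UMI was found in 0.679%, 0.592%, 3.62% and 1.45% of thinned cells (1.14%, 0.836%, 5.27% and 2.27% unthinned), against 0.0517% and 0.120% in B cells. Without the 5 top cells of each library the log2 ratios of Klrg1 were -0.51 and -2.03 and those of S1pr5 -0.01 and -1.70. The Aire-/- ratios thus did not rest on those cells.

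Opposite signs were the commonest outcome for any gene, and 2 members that showed them were singled out after their values were seen. The integrin chain Itgb1 stood at 113, 81.8, 151 and 210 CPM, and the calcium-binding protein S100a6 at 189, 131, 385 and 506. Log2 ratios of Itgb1 were -0.46 (-0.56 to -0.37) and 0.48 (0.40 to 0.56), and those of S100a6 were -0.54 (-0.61 to -0.46) and 0.40 (0.35 to 0.44). Members of the memory and effector list thus differed in both directions within Aire-/-.

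Of 10 tested cytotoxic genes, 0 were higher in both pairs, 4 lower in both and 6 opposite, with medians of -0.07 and -0.12 that stayed below 0 under the other 3 scalings. In the same gate of the CD45+ sort of spleen only 3 were tested, with medians of -0.26 and 0.03. Among cells with a Ccl5 UMI the Aire+/+ median turned to 0.07. Gzmb, a granule protease that triggers death of target cells, was looked up after its values were seen and stood at 26.8, 12.2, 80.6 and 64.0. Its log2 ratios were -1.14 (-1.38 to -0.91) and -0.33 (-0.45 to -0.21), with the aPD1 library below its control in each genotype and Aire-/- above Aire+/+. Gzma, another granule protease, stood at 83.9, 82.0, 566 and 460, with -0.03 (-0.13 to 0.07) and -0.30 (-0.34 to -0.25). A Gzma UMI was found in 1.82%, 1.85%, 7.58% and 5.84% of thinned cells (2.43%, 2.51%, 8.71% and 6.94% unthinned), against 0.172% and 0.309% in B cells. Srgn, the granule proteoglycan and the most abundant member, stood at 419, 416, 471 and 507.

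Of 9 tested cytokine genes, 4 were higher in both pairs, 0 lower in both and 5 opposite, with medians of -0.04 and 0.19 that kept their signs under the other 3 scalings. Among cells with a Ccl5 UMI the Aire+/+ median turned to 0.44. Ccl3, Ccl4, Ifng and Tnf were the 4 higher ones. Without each gene's 5 top cells, 1 of 9 was higher in both. Among cells without a Ccl5 UMI it was 0 of 7, and in thinned cells 0 of 5. The count of 4 includes Ccl3, which was picked for being higher in both pairs, so no direction is read from it. Ifng, the effector cytokine interferon gamma, stood at 4.20, 5.86, 5.26 and 6.25 CPM, with log2 ratios of 0.48 (0.05 to 0.91) and 0.25 (-0.19 to 0.69). Tnf stood at 7.04, 8.36, 7.49 and 8.42, with 0.25 (-0.10 to 0.59) and 0.17 (-0.20 to 0.54). For Tnf in both genotypes and Ifng in Aire-/- the difference was not detectable at this depth. Ltb, a lymphotoxin chain and the most abundant member, had log2 ratios of -0.09 and 0.07.

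Pdcd1, the target of the antibody, was low in every library at 4.57, 5.26, 5.59 and 6.76 CPM, with log2 ratios of 0.20 (-0.23 to 0.64) and 0.28 (-0.15 to 0.70). A difference in it was not detectable at this depth. In thinned cells 0.643%, 0.766%, 0.566% and 1.06% had a Pdcd1 UMI (1.82%, 2.09%, 1.83% and 2.82% unthinned), and 0 of the B cells did, which allows up to 0.0517%. Of 8 tested inhibitory receptors, 5 were higher in both pairs, 1 lower in both and 2 opposite, with medians of 0.10 and 0.25 that kept their signs under the other 3 scalings. Over members with at least 400 UMIs in each pair the Aire-/- median was -0.01. Tigit, a receptor for nectin-family ligands singled out after its values were seen, stood at 4.41, 5.97, 7.56 and 11.1, with 0.44 (0.01 to 0.86) and 0.55 (0.21 to 0.91). Lag3, which binds MHC class II, was also singled out and split by genotype at 5.15, 4.01, 7.76 and 13.3, with -0.36 (-0.81 to 0.09) and 0.77 (0.44 to 1.11). Cd5, a brake on T cell receptor signaling and the most abundant member, stood at 122, 128, 124 and 144.

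Of 9 tested costimulatory receptors, 2 were higher in both pairs, 0 lower in both and 7 opposite, with medians of -0.07 and 0.17. Slamf6, a receptor of stem-like T cells, was higher in both at 95.1, 103, 91.4 and 105, with log2 ratios of 0.11 (0.02 to 0.20) and 0.20 (0.09 to 0.30). Tnfrsf9, an activation-induced receptor also known as 4-1BB, was singled out after its values were seen and stood at 17.9, 13.8, 13.7 and 26.2, with -0.37 (-0.61 to -0.13) and 0.93 (0.69 to 1.18). Of 25 tested genes of T cell receptor signaling, 6 were higher in both, 0 lower and 19 opposite, with medians of -0.02, which turned to 0.01 when ribosomal protein and mitochondrial genes were left out of the total, and 0.11. Of 24 immediate early genes, 4 were higher in both, 4 lower and 16 opposite, with medians of -0.06 and 0.12. The receptor signaling and early activation genes thus showed no shared direction.

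Type I interferon response genes leaned lower in the CD8+ sort. Of 35 tested, 1 was higher in both pairs, 15 lower in both and 19 opposite, with medians of -0.09 and -0.11 that stayed below 0 under the other 3 scalings. The same gate in the CD45+ sort of spleen did not show this, with medians of 0.07 and -0.02 over 17 tested members. Among cells with a Ccl5 UMI the Aire-/- median turned to 0.08. Isg15, a ubiquitin-like protein induced by interferon and singled out after its values were seen, stood at 57.0, 43.9, 50.2 and 42.0 CPM, with log2 ratios of -0.38 (-0.51 to -0.24) and -0.26 (-0.41 to -0.10). Ly6e, the most abundant member, was not lower in both and stood at 959, 924, 927 and 998, with -0.05 (-0.08 to -0.02) and 0.11 (0.07 to 0.14). Summed over the list, the level was 3100, 2908, 3040 and 3121, lower under aPD1 in Aire+/+ and slightly higher in Aire-/-. Of 29 interferon-gamma inducible genes, 3 were higher in both, 7 lower and 19 opposite, with medians of -0.12 and 0.03, the latter turning below 0, to -0.01 at the lowest, under trimmed means and median-of-ratios factors. Psme1, a proteasome activator for antigen processing, had -0.17 (-0.21 to -0.13) and 0.17 (0.13 to 0.22). Of 8 MHC class I genes, 3 were higher in both, 0 lower and 5 opposite.

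Cell cycle genes also leaned lower. Of 20 tested, 0 were higher in both pairs, 11 lower in both and 9 opposite, with medians of -0.17 and -0.20 that stayed below 0 under the other 3 scalings. In the same gate of the CD45+ sort of spleen the medians were -0.24 and -0.13 over 7 tested members. Among cells without a Ccl5 UMI the Aire-/- median was 0.00. Tuba1b, a tubulin chain, stood at 320, 277, 343 and 315 CPM, with log2 ratios of -0.21 (-0.27 to -0.16) and -0.13 (-0.18 to -0.07). Top2a, a topoisomerase of dividing cells singled out after its values were seen, stood at 8.30, 6.67, 40.6 and 20.2, with -0.31 (-0.67 to 0.03) and -1.0 (-1.20 to -0.81). The Aire-/- Isotype Control library was the high one, as for Klrg1. The 5 members with too few UMIs to be tested had log2 ratios of 0.05 and -1.4 (the proliferation marker Mki67), 1.07 and -1.10 (Ccna2), -0.57 and -1.41 (Ccnb1), 0.14 and -0.85 (Cdk1) and 0.70 and -1.60 (Nusap1). All 5 were lower in Aire-/-. In Aire+/+ the ratio was above 0 for 4 of them, of which only Ccna2 had an interval above 0 (0.43 to 1.74). The intervals of Mki67 (-0.56 to 0.65), Cdk1 (-0.63 to 0.91) and Nusap1 (-0.33 to 1.78) included 0. Without its 5 top cells per library, Mki67 had -0.46 in Aire+/+. The tested Birc5 had 0.47 (-0.02 to 0.98) and -1.12 (-1.4 to -0.85). A Top2a UMI was found in 0.822%, 0.453%, 1.53% and 0.862% of thinned cells (2.61%, 1.95%, 3.79% and 2.78% unthinned), against 0.810% and 1.96% in B cells, so that the thinned Aire+/+ aPD1 share was below the B cell share and the thinned Aire+/+ Isotype Control and Aire-/- aPD1 shares close to it.

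Of 15 heat shock genes, 3 were higher in both pairs, 5 lower and 7 opposite, with medians of -0.20 and 0.04, the latter turning below 0, to -0.01 at the lowest, under trimmed means and median-of-ratios factors. Hspa8, a chaperone, stood at 1741, 1463, 2284 and 2417 CPM. Cytokine receptors (33 tested) gave 8 higher, 8 lower and 17 opposite, migration genes (20) gave 5, 2 and 13, and the Bcl2 family (12) gave 3, 3 and 6. Transcription factors of effector and exhausted cells (10) gave 1, 3 and 6. Ribosomal proteins (82) gave 6, 4 and 72, with medians of -0.02 and 0.02 whose signs turned under other scalings. Their share of UMIs was 38.3%, 38.3%, 36.4% and 36.5%.

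**Figure D4:**
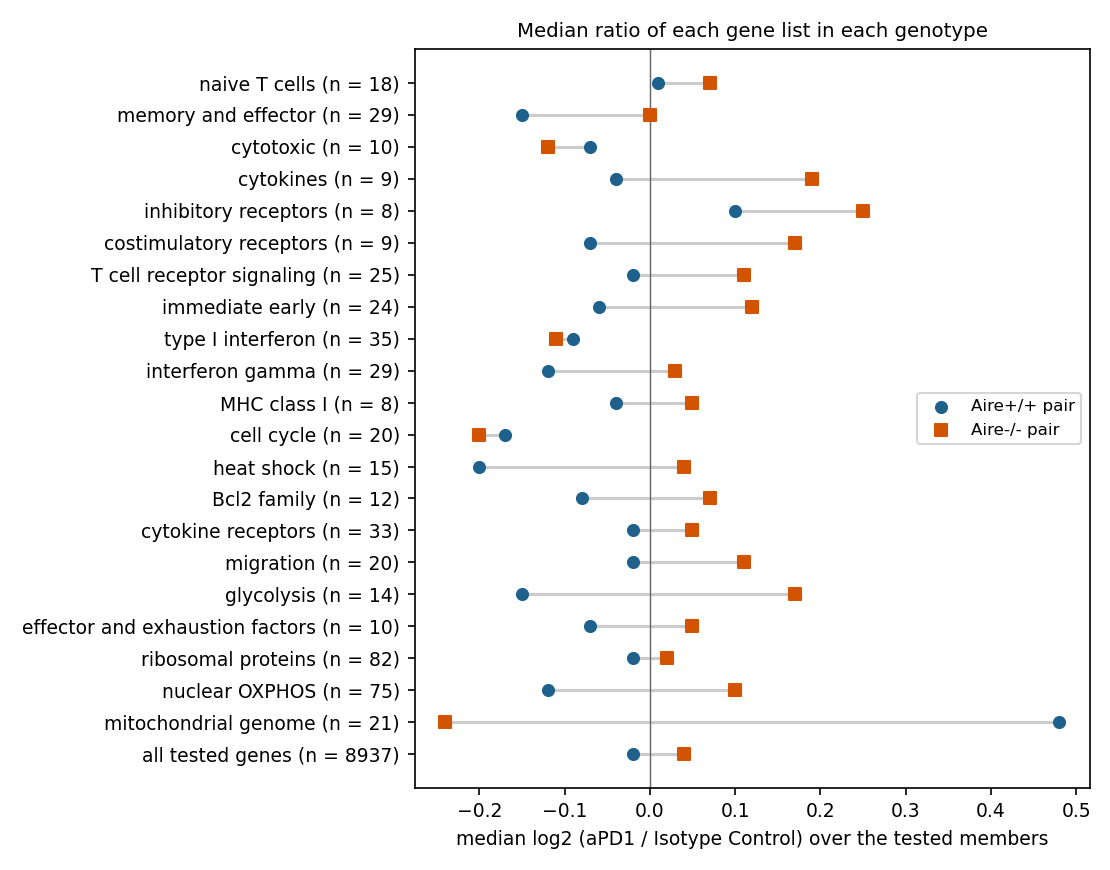
Median log2 ratio of aPD1 over Isotype Control over the tested members of each gene list (horizontal axis), in the Aire+/+ pair (circles) and the Aire-/- pair (squares). Cytotoxic, type I interferon and cell cycle lists lay below 0 in both genotypes under all 4 scalings. Inhibitory receptors and, by less, naive T cell genes lay above 0 in both, and the mitochondrial genome at 0.48 and -0.24.

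Markers of other cells were counted because the sort and gate can let some through. The B cell list (16 genes, 6 tested) had 0 members higher in both pairs, 0 lower and 6 opposite, with medians of -0.40 and 1.12. Its summed level was 602, 501, 318 and 443 CPM, with Ighm the most abundant at 233, 232, 208 and 235. The defining marker Ms4a1 had 0, 3, 1 and 0 UMIs. The class II gene H2-Eb1, which dendritic cells also make, had 98.1% of its 633 UMIs in 5 cells of the Aire+/+ aPD1 library. The part of these markers in the opposite signs was not tested.

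The NK cell list shares Fcer1g and Tyrobp with the genes above. Of 10 NK genes, 3 were tested, these and Klre1, whose log2 ratios of 0.09 (-0.22 to 0.39) and 0.10 (-0.12 to 0.32) include 0. Among members with too few UMIs to be tested, Klra8 had 2.37 and 2.39, Klra4 0.05 and 2.07, Klrb1c 0.12 and -0.49, Klra9 -0.55 and 0.39, Cd244 -0.37 and 0.90 and Klri2 -0.22 and -0.60. The large ratios rest on few UMIs, 1, 5, 5 and 27 for Klra8 and 2, 2, 3 and 13 for Klra4. The Klra8 interval in Aire+/+ was -0.79 to 7.93. The whole list had a summed level of 28.1, 33.2, 37.5 and 46.6 CPM. This sum includes Fcer1g, which was picked for being higher in both pairs, and its partner Tyrobp, so no direction is read from it. Klre1 was the most abundant member at 9.51, 10.1, 21.1 and 22.6. Ncr1, the defining NK receptor, had 0, 0, 0 and 1 UMIs. Of 16 monocyte, macrophage and dendritic genes, 4 were tested, of which Fcer1g and Tyrobp again were higher in both and 2 opposite, with a summed level of 220, 207, 134 and 157 and Cst3 the most abundant. Adgre1 and Ace were at 0 in all 4 libraries. Of the macrophage genes, Lyz2 had 13, 14, 1 and 11 UMIs, C1qa 0, 2, 5 and 9, C1qb 6, 3, 2 and 10, C1qc 2, 4, 1 and 11, Csf1r 0, 2, 0 and 4, and Cd68 34, 49, 31 and 48. All 6 had more UMIs under aPD1 in Aire-/-, but there the intervals of C1qa, Csf1r and Cd68 included 0. In Aire+/+ the interval of each of the 6 included 0. They are a part of the list of 16, and no direction is read from them. Itgam had 10, 17, 29 and 15, with -0.99 (-2.00 to -0.05) in Aire-/-. The dendritic genes Xcr1 and Clec9a had 24, 38, 11 and 7 and 31, 25, 8 and 11. The tested Cst3 had log2 ratios of -0.15 (-0.22 to -0.08) and 0.18 (0.08 to 0.27), and Itgax -0.40 (-0.85 to 0.05) and 0.07 (-0.25 to 0.39). The part of NK and myeloid markers in the Fcer1g ratio was not tested.

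Red cell genes were high in the Aire+/+ Isotype Control library alone, with a summed level of 262, 1.09, 2.37 and 2.62 CPM. There, 1 cell held 2963 of the 3044 UMIs of Hbb-bs, the most abundant of the 6 genes, none of which were tested. Of 8 neutrophil genes 6 were at 0 in all 4 libraries, with summed levels of 0, 0.163, 0 and 0 and Csf3r the most abundant. Of 5 platelet genes 4 were at 0, with summed levels of 0.158, 0.434, 0.131 and 0.383, all from Itga2b. Plasma cell genes summed to 26.0, 24.0, 26.0 and 31.1, mostly Xbp1, which T cells also make, and Sdc1 was at 0. Plasmacytoid dendritic genes summed to 213, 187, 208 and 215, mostly Bst2, with 1 of 4 tested members higher in both and 1 lower. CD4 and regulatory T cell genes summed to 37.5, 32.4, 32.3 and 38.8, with Ikzf2 the most abundant and 2 of 3 tested members higher in both. Of the gamma-delta T cell list, 3 of 8 genes could be looked up, and they summed to 3.78, 3.91, 6.18 and 4.59 with Cd163l1 the most abundant.

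The same gate in the CD45+ sort of spleen gave 694 cells of the same 4 conditions, in libraries that the rule did not use but whose animals may be the same. Of these cells 5.84%, 8.14%, 7.45% and 7.73% had a Cd4 UMI, against 0.0357%, 0.174%, 0.0871% and 0.196% in the CD8+ sort. The gated cells of the sorts are thus not alike. Acvrl1 had 7, 3, 9 and 8 UMIs there (6.65, 2.89, 8.29 and 6.11 CPM), too few for a direction. With log2 ratios of -1.20 (-3.79 to 0.93) and -0.44 (-2.02 to 1.11) the difference was not detectable at this depth. Daam1 had -0.56 (-2.83 to 1.51) and -1.59 (-4.99 to 1.02), likewise not detectable. Ccl3 had 2, 0, 2 and 6 UMIs, too few for a direction. Fcer1g split by genotype, with -2.12 (-2.86 to -1.44) and 1.31 (0.24 to 2.51). Some genes of myeloid and B cells had the same signs in these cells, with -2.07 (-2.70 to -1.49) and 1.08 (0.03 to 2.23) for Tyrobp, -2.58 (-2.90 to -2.28) and 0.37 (-0.05 to 0.79) for Cst3 and -1.05 (-1.23 to -0.88) and 2.03 (1.49 to 2.62) for Cd74. H2-Aa and H2-Eb1 also had these signs. Others did not, with 0.12 (-0.15 to 0.38) and 0.40 (0.17 to 0.64) for Ighm and 2.02 (-1.32 to 7.64) and 1.31 (-0.41 to 3.40) for Itgax. Tyrobp, Cst3 and Cd74 were looked up after their values were seen, and the part of other cells in the Fcer1g ratios was not tested. Pdcd1 stood there at 15.2, 8.68, 28.6 and 15.3 CPM with -0.81 (-2.17 to 0.46) and -0.90 (-1.79 to -0.05). In Aire+/+ the difference was not detectable at this depth. Both ratios had the other sign than in the CD8+ sort, where neither difference was detectable. Of 2337 tested genes there, 1.03% were at least 1.5-fold higher and 1.67% lower in Aire+/+, and 1.80% higher and 0.513% lower in Aire-/-. By that size 1 gene (0.0428%) was higher in both pairs, Izumo1r, and 1 (0.0428%) lower in both, Gzma, and 48.0% had opposite signs. Across the genes tested in both sorts, the log2 ratios of the CD8+ and the CD45+ sort correlated at r of 0.20 within Aire+/+ and 0.13 within Aire-/-, both weak and not read further.

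In the CD8+ sort of tumor, the same gate and limits gave more shared genes. Of 9669 tested genes, 1.18% were at least 1.5-fold higher and 0.848% lower in Aire+/+, and 1.39% higher and 0.621% lower in Aire-/-. By that size 21 (0.217%) were higher in both pairs and 11 (0.114%) lower, and 39.6% had opposite signs against 64.5% in spleen. The difference between the tissues was not tested. Pdcd1 stood at 667, 954, 794 and 783 CPM in tumor, far above its level in spleen. Ccl3 stood there at 575, 571, 517 and 599, with log2 ratios of -0.01 (-0.04 to 0.02) and 0.21 (0.18 to 0.25). Fcer1g was higher in both pairs in tumor too, with 0.56 (0.47 to 0.65) and 0.41 (0.33 to 0.49). The macrophage genes Apoe, C1qa and Lyz2 and the heme-degrading enzyme Hmox1, noticed after their values were seen, were among the 21 higher genes. So were the immediate early genes Egr1 and Nr4a1, the cytokine gene Il2 and the integrin gene Itgae. Other members of the myeloid list did not follow, with -0.17 (-0.22 to -0.13) and -0.06 (-0.12 to -0.01) for Cst3 and 0.17 (-0.15 to 0.50) and 0.08 (-0.15 to 0.31) for Tyrobp. The part of myeloid RNA in the Fcer1g ratio there was not tested. Neither shared lower gene was lower in both pairs there. Acvrl1 had 5, 6, 13 and 14 UMIs, with 0.60 (-1.37 to 2.65) and 0.00 (-1.20 to 1.21), and Daam1 had -0.62 (-1.11 to -0.14) and 0.12 (-0.40 to 0.65).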

How the data were processed

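Per the labels, single cells were sorted for CD45+ or CD8+ and made into libraries with a 10X Genomics kit for the 3′ end of RNA, and the submitters' processing notes name the GRCm38 build. The paper's methods also describe a kit for the opposite end of RNA, for libraries made together with T cell receptor sequencing. Its supplement counts receptor sequences for CD8+ spleen samples with the same numbers of barcodes as here, so the end read is uncertain. The authors deposited UMI counts per gene and barcode, made with Cell Ranger, as whole numbers that were not normalized. Symbols were taken from row names, 13 Ensembl identifiers were given symbols from a reference table, and rows of a symbol were summed to 24469 symbols, of which 14816 had a UMI. Near-identical gene copies are uncertain where counting can split them. The 27 transgene or vector entries held 2, 3, 4 and 1 UMIs and were left out of all totals. Doublets were not removed.

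UMIs of gated barcodes were summed per library and divided by their total, and log2 ratios of aPD1 over Isotype Control were taken within each genotype. Genes with at least 100 UMIs over the 2 libraries of each pair were tested, and 1.5-fold was the limit of size. Ratios have conditional exact intervals, levels exact Poisson and shares Clopper-Pearson intervals, at 95%. A count of 0 was given a floor of 3 counts. Shares of cells were taken at 1500 UMIs per cell (seed 7), which left out 0 of the gated cells and 14 of 5816 B cells (Cd79a at least 2, no CD3 UMI). The calculation was tested on simulated data.

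The named genes are the 7 of the gate, Pdcd1 and Aire, up to 15 genes in each direction with the largest smaller ratio among those past 1.5-fold in both pairs, and in each list the 3 members with the most UMIs and any member past 1.5-fold in the same direction in both pairs. The 12 genes past 1.5-fold in opposite directions are a further list outside this rule, and others were singled out after their values were seen, as said beside them. Members and lists were chosen with earlier results of these data known, and the list of mitochondrial genes, the setting aside of vector entries and part of the genes whose shares are given were chosen after the values were seen. Scaling alternatives were edgeR 4.0.16 trimmed means, DESeq2 1.42.0 size factors and totals without ribosomal protein and mitochondrial genes. Python 3.11.15 with numpy 2.4.6, scipy 1.17.1, pandas 2.3.3 and matplotlib 3.10.9, and R 4.3.3, were used. Values of some genes are not reported here.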

Additional observations from a re-analysis of the deposited data

Results flagged for a closer look

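The 12 genes past 1.5-fold in opposite directions in the 2 genotypes stand out because the pairs of libraries differed in opposite directions. The difference between the genotypes was not tested, and with 1 library per group it has no replicate check. Higher in Aire+/+ and lower in Aire-/- were Cxcr4, with a log2 ratio of 0.83 and -0.67, Gm17066 with 0.63 and -0.59, Rapgef2 with 0.85 and -0.79, Rmrp with 0.74 and -0.81, Snord22 with 1.12 and -0.82, Tbrg3 with 0.80 and -0.83, Ttc7b with 0.70 and -0.80, mt-TrnA with 1.5 and -0.91, mt-TrnG with 2.17 and -1.0, and mt-TrnV with 1.01 and -0.80. Lower in Aire+/+ and higher in Aire-/- were H2-Eb1, with -0.59 and 1.14, and Xcl1, with -0.64 and 1.19. H2-Eb1 was found in 17, 16, 17 and 23 cells, with 83.5%, 98.1%, 92.6% and 94.3% of its UMIs in the 5 top cells. Without those cells its log2 ratios were -3.71 and 0.76, so their size rests on few cells.

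The 1.5-fold limit for this list was set after the values were seen, because opposite signs were too common to list. Of 95 genes named by the rule in the methods and with a ratio in both pairs, the 12 above not among them, 63 (66.3%) had opposite signs, close to the 64.5% of all 8937 tested genes. For 44 of the 95 (46.3%) the signs were opposite and the counting intervals of both ratios lay outside 0, against 1052 (11.8%) of all tested genes. Many of the 95 were named for their abundance, and abundant genes have narrow intervals. Of the 44, 38 (86.4%) were lower in Aire+/+ and higher in Aire-/-, against 666 (63.3%) of the 1052. Genes with the same sign and both intervals outside 0 included Acvrl1, Ccl3, Ccl5, Daam1, Fcer1g, Slamf6, Tuba1b and Tyrobp.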

How the results depend on the processing

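Counts were recomputed under 18 alternatives and named ratios under 16. Each gene without its 5 top cells, the removal of shared barcodes, and all alternatives of the counts for single pairs and for opposite directions were chosen after the data were seen. Main counts past 1.5-fold were 2 higher and 2 lower in both pairs, 62 and 25 higher and lower in Aire+/+, 57 and 73 in Aire-/- and 12 opposite. Only values outside 1.5 times the main count follow. The causes were not tested beyond the number of genes or cells each setting keeps.

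With at least 50 UMIs per pair, 4 and 7 genes were shared higher and lower, with 130 and 75 in Aire+/+, 121 and 151 in Aire-/- and 34 opposite. At 400 UMIs these were 0 and 0, 7 and 7, 12 and 6, and 3. With no filter they were 162 and 119, 888 and 656, 836 and 859, and 391. At a limit of 5/4-fold they were 25 and 19, 539 and 264, 441 and 459, and 201. At 2-fold they were 1 and 0, 11 and 1, 9 and 10, and 1. Without the gate, 7 were shared lower, 125 lower in Aire+/+, 125 higher in Aire-/- and 56 opposite. The stricter gate left 0 shared higher. Cells with a Ccl5 UMI gave 1 shared higher and 52 lower in Aire+/+. Thinned cells gave 0 shared higher, 0 shared lower, 38 lower in Aire-/-, 5 opposite past 1.5-fold and 3568 of 6015 tested genes of opposite sign (main 5763). Weighting cells equally gave 21 opposite. Without each gene's 5 top cells there were 1 shared higher, Tigit, 7 shared lower, 40 lower in Aire+/+ and 19 opposite. Without shared barcodes there was 1 shared higher, Ccl3.

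Acvrl1 and Daam1 were both past 1.5-fold lower in both pairs in 10 of the 16 alternatives that kept this limit, and Ccl3 and Fcer1g both past it higher in 6 of 16. Without the gate the shared higher genes were Cd209d, Cybb and Mzb1, with neither Ccl3 nor Fcer1g among them. With cells weighted equally they were Fcer1g, Grk4 and Spef2.

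Of the named ratios past 1.5-fold in the main result, those that reversed were Ccl3 in Aire+/+ among cells without a Ccl5 UMI (-3.58, main 2.40), Fcer1g in Aire+/+ among the same cells (-0.91, main 0.59), Daam1 in Aire-/- in thinned cells (0.23, main -0.73) and Hbb-bt in Aire-/- among cells with a Ccl5 UMI (0.45) and in thinned cells (1.43, main -1.18). Smaller named ratios turned sign in 141 further instances, among them Tyrobp in Aire-/-, at -0.14 without its 5 top cells and -0.39 under the stricter gate (main 0.53), and in Aire+/+, at -0.60 without the gate (main 0.58). Of all named ratios under alternatives apart from the 5 reversed past 1.5-fold, 2546 stayed within their counting interval and 405 did not. Of 62 list medians, 37 kept their sign under every alternative run. No paired analysis was possible because each condition has 1 library. Low counts limit the shared genes: all 4 had fewer than 400 UMIs in each pair.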

Other observations

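Of the 24 tested immediate early genes, which report recent receptor signaling, 4 were higher in both pairs and 4 lower in both, Jund, Dusp1, Dusp5 and Zfp36. These counts are to be read beside the 20.3% and 15.2% of all tested genes, and no direction is read for the list. Past 1.5-fold were Jun in Aire+/+, with a log2 ratio of -0.65 (-0.84 to -0.46), and Fos in Aire-/-, with 0.62 (0.22 to 1.02). Of the 4 lower ones, Dusp1 had -0.37 (-0.62 to -0.12) and -0.32 (-0.60 to -0.05) and Zfp36 -0.28 (-0.36 to -0.20) and -0.02 (-0.12 to 0.07). Dusp5 had -0.05 (-0.37 to 0.27) and -0.36 (-0.66 to -0.07) and Jund -0.05 (-0.12 to 0.03) and -0.14 (-0.23 to -0.06). The 3 genes below are from the 4 higher ones and were looked up after their values were seen. Nr4a1, an orphan nuclear receptor induced by antigen signaling, stood at 12.9, 14.7, 8.41 and 10.7 CPM, UMIs per 1000000, with log2 ratios of 0.19 (-0.07 to 0.44) in Aire+/+ and 0.34 (0.00 to 0.68) in Aire-/-. Cd69, an early activation marker that keeps cells in tissue, stood at 106, 109, 96.5 and 109, with 0.04 (-0.05 to 0.13) and 0.18 (0.08 to 0.28). Dusp2, a phosphatase of activated cells, stood at 127, 150, 126 and 138, with 0.24 (0.16 to 0.32) and 0.14 (0.05 to 0.23).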
